A study of Mus musculus with 18 samples.

Results

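Solute carriers are membrane proteins that move sugars, lactate, amino acids, fatty acids, vitamins, metals and inorganic ions across the cell surface and across organelle membranes. This account covers those named with a family number, the letter a and a member number, the mitochondrial Slc25 family left out, in the apex of the mouse heart 1 day after surgery. Of 289 such genes in the deposited tables, 135 had a mean of at least 1 FPKM (fragments per kilobase of transcript, scaled to the mapped reads of the library) over the 18 libraries, and these are the genes described, from 42 numbered families. Their level, and not any difference between groups, chose them. The remaining 154 genes fell below that level, 8 of them at 0 in every library. A further 39 genes whose symbols begin with Slc, such as Slco genes and members with the letter b, are outside the naming rule.

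The hearts came from C57BL/6 mice, an inbred strain, and formed 3 groups of 6. The first had myocardial infarction (MI) and daily DCA, 10 mg/kg (MI_DCA), the second MI and vehicle (MI_vehicle), and the third a sham operation and vehicle (sham_vehicle). The labels do not spell out DCA; the study names it beside TGR5, a membrane receptor for bile acids. They give neither age nor sex, do not state the method of infarction, and leave unsaid whether libraries came from different animals. The p-values therefore reflect variation among these libraries, which may in part be technical. In bulk tissue such as this, fewer cells of a type and less RNA per cell cannot be told apart.

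Heart muscle normally oxidises fatty acids, and takes up glucose mainly through GLUT4, an insulin-responsive carrier held in vesicles until called to the surface. Cells that live on glycolysis rely on GLUT1 for glucose and on MCT4 to release lactate together with a proton. Other carriers set the ionic state of the myocyte, among them the sodium-calcium exchanger, which extrudes calcium after each beat, and the sodium-proton and chloride-bicarbonate exchangers, which set its pH. Zinc carriers of the Slc39 family bring zinc into the cytosol and those of the Slc30 family take it out.

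The libraries did not fall cleanly by label. The first principal component of the other 11850 genes tested held 70.3% of their variance and separated sham_vehicle hearts, with scores of 32.9 to 40.9, from most infarcted hearts, with scores of -16.4 to -54.3. Infarcted hearts 1, 3 and 5 of MI_DCA (18.9, 25.1 and 14.1) and heart 4 of MI_vehicle (14.8) lay on the sham side, and these 4 are called the sham-side hearts below. The summed level of 10 cardiomyocyte markers, among them Myh6 and Tnnt2, had a median of 41405 FPKM in MI_DCA hearts (20430 to 51343), 26836 in MI_vehicle hearts (20556 to 47251) and 48251 in sham_vehicle hearts (47354 to 55639). The 8 markers of infiltrating monocytes and macrophages, among them Ly6c2 and Ccr2, summed to 104 to 394 FPKM in MI_DCA hearts, 172 to 492 in MI_vehicle hearts and 28.7 to 68.9 in sham_vehicle hearts. Neutrophil markers summed to 39.7 to 176, 52.6 to 371 and 9.90 to 36.6 FPKM in the same order of groups, with Ly6g below 1 FPKM. Between MI_vehicle and sham_vehicle, 8 of the 10 cardiomyocyte markers fell, all 8 monocyte markers and all 5 neutrophil markers tested rose, and their part in the changes of carriers was not tested. All 4 lymphocyte and all 4 adipocyte markers had means below 1 FPKM.

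Between MI_vehicle and sham_vehicle hearts, 59 of the 135 carriers were higher (43.7%, against 38.8% of all 11985 genes tested), 25 were lower (18.5%, against 19.9%) and 51 did not pass an adjusted p under 0.05 in limma. The median log2 fold change was 0.17 for the carriers and 0.12 for all genes, so as a group they moved much as other genes did, while single carriers moved far in both directions. A called rise of at least 1 on the log2 scale was seen in 12 carriers and a called fall of at least 1 in 3. The shares of all genes at that size are not given here, so these counts are no result about carriers. In 25 carriers every MI_vehicle heart lay above every sham_vehicle heart (18.5%, against 16.3% of all genes), and in 8 every one lay below (5.93%, against 5.64%). Values showed no scaling between libraries beyond FPKM. Median-ratio scaling shifted the all-gene median by -0.12 and gave 48 higher and 34 lower carriers, and quantile normalization shifted it by -0.15 and gave 41 and 40. Under both scalings all 25 falls were still called, and 19 of the 59 rises were not under at least one of them; these are marked where they are named.

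Between MI_DCA and sham_vehicle hearts, 24 carriers were higher (17.8%, against 15.9% of all genes) and 13 lower (9.63%, against 8.12%), with a median of 0.09 against 0.06 for all genes (log2). In 12 carriers every MI_DCA heart lay above every sham_vehicle heart (8.89%, against 6.49% of all genes) and in 5 below (3.70%, against 2.76%). This comparison has the same sham_vehicle hearts as the first, so its values are given beside those of MI_vehicle and not as a second line of evidence. No carrier was called in opposite directions, and 24 were higher and 11 lower in both infarcted groups. The shares of all genes called in both are not given here, so these counts are no result about carriers. Slc44a1, a choline carrier, and Slc20a2, a phosphate carrier, were called lower in MI_DCA and missed the threshold in MI_vehicle. For neither was a difference between the infarcted groups called. The Slc44a1 call was lost without any 1 of 9 libraries. The counts for MI_DCA are fragile: leaving out single libraries gave 12 to 32 higher and 5 to 21 lower carriers, and 20 of the 37 calls were lost in at least 1 of 12 such fits.

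**Figure D1:**
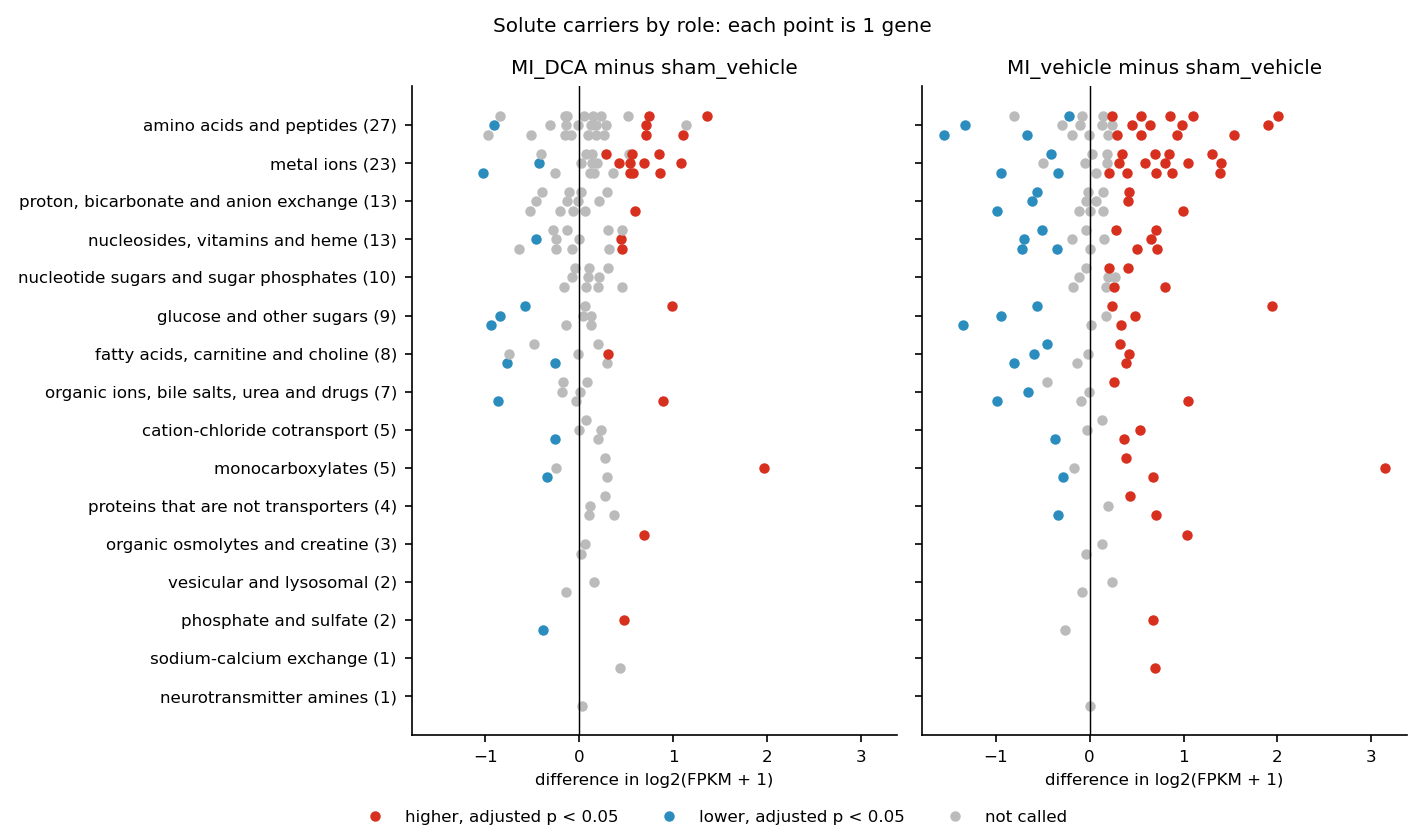
Difference in log2(FPKM + 1) of each carrier described (x axis), MI_DCA minus sham_vehicle on the left and MI_vehicle minus sham_vehicle on the right, with genes grouped by role (rows, number of genes in brackets). Red points were higher and blue points lower at an adjusted p under 0.05; Slc16a3, at 1.96 and 3.15, is the rightmost point of both panels.

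The largest rise was that of a lactate carrier. Of 5 monocarboxylate carriers, 3 rose (60%, against 38.8% of all genes) and 1 fell (20%, against 19.9%) in MI_vehicle relative to sham_vehicle hearts. In MI_DCA hearts 1 rose (20%, against 15.9% of all genes) and 1 fell (20%, against 8.12%). Slc16a3 encodes the lactate exporter MCT4 (chromosome 11, 120948484 to 120959000, GRCm38.p6). It measured 4.70, 13.3 and 23.5 FPKM in MI_DCA hearts, 6.19, 30.4 and 66.0 FPKM in MI_vehicle hearts and 1.37, 2.07 and 3.12 FPKM in sham_vehicle hearts, given here and below as the lowest, median and highest of 6. Neither infarcted group overlapped the sham_vehicle hearts, and the 4 sham-side hearts, at 4.70 to 6.30 FPKM, formed the low end of the infarcted hearts. The log2 fold change was 1.96 for MI_DCA against sham_vehicle (SE 0.37, adjusted p = 0.009, limma) and 3.15 for MI_vehicle against sham_vehicle (SE 0.38, adjusted p = 7.85e-05), the largest rise among the 135 carriers. Slc16a1 encodes MCT1, the main lactate carrier of the heart muscle cell. It measured 45.2, 55.6 and 76.4 FPKM in MI_DCA hearts, 46.5, 62.5 and 72.6 FPKM in MI_vehicle hearts and 56.4, 65.1 and 84.7 FPKM in sham_vehicle hearts. Its groups overlapped, and its log2 fold change was -0.17 for MI_vehicle against sham_vehicle (SE 0.12, adjusted p = 0.25). Slc16a7, which encodes the high-affinity carrier MCT2, was the member that fell, at medians of 0.99, 1.07 and 1.58 FPKM in MI_DCA, MI_vehicle and sham_vehicle hearts (log2 fold change -0.34 for MI_DCA and -0.29 for MI_vehicle against sham_vehicle). Slc16a6, shown in zebrafish liver to release ketone bodies, had medians of 6.10, 9.10 and 5.11 FPKM in the same groups and rose in MI_vehicle (log2 fold change 0.67, SE 0.15, adjusted p = 0.00193). The ratio of Slc16a3 to Slc16a1 in each heart had medians of 0.223 in MI_DCA, 0.482 in MI_vehicle and 0.0308 in sham_vehicle hearts, and reached 1.42 in 1 MI_vehicle heart.

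The promoter windows of Slc16a3 and of Slc2a1, the largest riser among the glucose carriers, are shown with that of Slc8a1, a smaller riser. The 3 genes were picked because they differ in the letters ACGTG, the core of the hypoxia response element, searched on both strands and given in capitals. The contrast among the 3 windows was therefore set by that choice and is no result about the rises. The windows run 250 bases before to 50 after a start site annotated by RefSeq (GRCm38.p6), read 5′ to 3′ along the gene's strand. For Slc2a1 and Slc8a1 that site is the 5′ end of the gene span given with its values, and for Slc16a3 it is position 120949067, which lies 583 bases inside the span.
Slc16a3, chr11:120948817-120949116, plus strand: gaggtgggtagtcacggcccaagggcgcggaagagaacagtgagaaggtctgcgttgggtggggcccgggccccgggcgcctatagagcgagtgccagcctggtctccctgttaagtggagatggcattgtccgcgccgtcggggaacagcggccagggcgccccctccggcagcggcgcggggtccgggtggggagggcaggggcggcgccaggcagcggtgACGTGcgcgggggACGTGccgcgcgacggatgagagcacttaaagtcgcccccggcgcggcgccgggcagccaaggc
Slc2a1, chr4:119108495-119108794, plus strand: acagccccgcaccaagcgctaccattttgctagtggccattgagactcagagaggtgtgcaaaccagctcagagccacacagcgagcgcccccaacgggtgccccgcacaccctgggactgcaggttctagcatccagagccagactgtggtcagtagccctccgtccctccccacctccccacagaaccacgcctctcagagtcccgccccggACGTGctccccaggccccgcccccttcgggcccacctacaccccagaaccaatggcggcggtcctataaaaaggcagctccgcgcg
Slc8a1, chr17:81738338-81738637, minus strand: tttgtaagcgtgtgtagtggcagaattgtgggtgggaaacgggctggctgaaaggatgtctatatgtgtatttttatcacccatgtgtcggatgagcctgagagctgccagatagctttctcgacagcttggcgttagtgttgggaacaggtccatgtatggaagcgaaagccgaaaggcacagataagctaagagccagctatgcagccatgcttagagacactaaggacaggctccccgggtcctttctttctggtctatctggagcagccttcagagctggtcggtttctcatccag
The Slc16a3 window held 2 matches, beginning at -27 and -14 from its start site, the Slc2a1 window 1, at -36, and the Slc8a1 window 0. ACGTG also lies inside CACGTG, the E-box core, and these were not separated. Of the 102 carriers with a window in that table, 32 (31.4%) held a match, against 19.7% of the windows of all 27025 genes and 19.6% of all 32851 windows. Among those higher in MI_vehicle than in sham_vehicle hearts 17 of 43 did (39.5%), among those lower 1 of 16 (6.25%), and among those not called 14 of 43 (32.6%). These shares describe letters and were not tested. Slc2a4 had no window. Slc16a3 had 5 listed transcripts, and its window was not tied to any of them.

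Glucose carriers moved in opposite directions. Slc2a4, which encodes GLUT4 (chromosome 11, 69942286 to 69948216), was the most abundant of the 135 carriers, with a mean of 152 FPKM over all libraries. It measured 54.2, 138 and 196 FPKM in MI_DCA hearts, 44.3, 95.6 and 168 FPKM in MI_vehicle hearts and 203, 232 and 249 FPKM in sham_vehicle hearts. Every infarcted heart lay below every sham_vehicle heart, and the 4 sham-side hearts, at 168 to 196 FPKM, were the highest of the infarcted ones. The log2 fold change was -0.94 for MI_DCA (SE 0.28, adjusted p = 0.0315, limma) and -1.35 for MI_vehicle against sham_vehicle (SE 0.26, adjusted p = 0.000965). Slc2a1 encodes GLUT1 (chromosome 4, 119108745 to 119137330). Slc2a1 measured 10.0, 22.4 and 36.8 FPKM in MI_DCA hearts, 12.1, 46.5 and 74.1 FPKM in MI_vehicle hearts and 7.33, 9.79 and 10.4 FPKM in sham_vehicle hearts. MI_vehicle hearts did not overlap the sham_vehicle hearts, while MI_DCA hearts did, through heart 1. Its log2 fold change was 0.99 for MI_DCA (SE 0.33, adjusted p = 0.0461) and 1.94 for MI_vehicle against sham_vehicle (SE 0.31, adjusted p = 0.00033). The MI_DCA call of Slc2a1 was lost under at least one of the other scalings and without any 1 of 9 libraries, and that of Slc2a4 without any 1 of 7; both MI_vehicle calls were kept in all of these fits.

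Among the other members of the Slc2 family, Slc2a12, which encodes GLUT12, was lower, at medians of 1.21 FPKM in MI_DCA, 0.995 FPKM in MI_vehicle and 2.44 FPKM in sham_vehicle hearts (log2 fold change -0.84, adjusted p = 0.0202, and -0.94, adjusted p = 0.00107, against sham_vehicle). Slc2a8, an intracellular sugar carrier of the family, was lower too (log2 fold change -0.58 for MI_DCA and -0.56 for MI_vehicle against sham_vehicle), and its MI_DCA call was lost without any 1 of 9 libraries. Slc2a3, which encodes GLUT3, a high-affinity carrier of neurons and leukocytes, and Slc2a10 rose in MI_vehicle, but those calls were lost under another scaling. In each group Slc2a4 made up most of the summed FPKM of the 6 Slc2 members in the median heart, at 78.5% in MI_DCA, 61.4% in MI_vehicle and 89.0% in sham_vehicle hearts, and Slc2a1 made up 14.0%, 30.4% and 3.76%. The sum was lower in every infarcted heart than in any sham_vehicle heart, at 99.6, 174 and 222 FPKM in MI_DCA, 103, 155 and 197 FPKM in MI_vehicle and 229, 260 and 279 FPKM in sham_vehicle hearts. The ratio of Slc2a1 to Slc2a4 measured 0.0545, 0.192 and 0.675 in MI_DCA hearts, 0.0718, 0.500 and 1.67 in MI_vehicle hearts and 0.0318, 0.0424 and 0.0498 in sham_vehicle hearts. All 12 infarcted hearts, the sham-side hearts included, therefore had a higher ratio than any sham_vehicle heart. Slc45a4, from a family of proton-coupled sugar carriers, rose in MI_vehicle (log2 fold change 0.24, SE 0.07, adjusted p = 0.0074), a call lost under another scaling. The sodium-glucose carriers Slc5a1 and Slc5a2 were below the floor, with highest values of 0.25 and 0.15 FPKM in any heart.

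**Figure D2:**
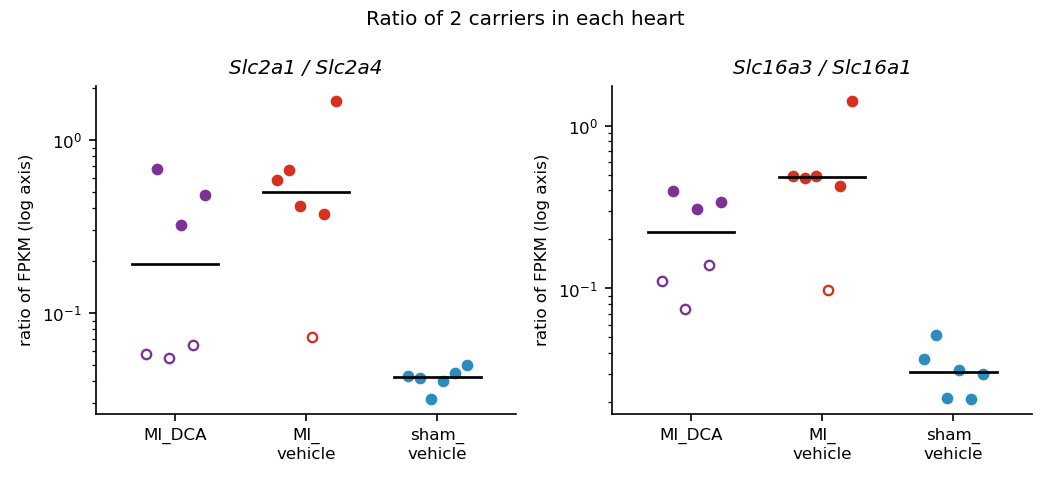
Ratio of Slc2a1 to Slc2a4 (left) and of Slc16a3 to Slc16a1 (right) in each heart, from FPKM, on log axes, with black lines at the group medians and open circles for the 4 sham-side hearts. Infarcted hearts of both groups lie above the sham_vehicle hearts in both ratios, with the open circles nearest to them.

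Fatty acid and carnitine carriers were divided, with a median log2 fold change of -0.07 in MI_vehicle against sham_vehicle hearts. Of 8, 3 were higher (37.5%, against 38.8% of all genes) and 3 lower (37.5%, against 19.9%). Slc27a1 encodes FATP1, a fatty acid transport protein of the plasma membrane. Slc27a1 measured 27.5, 68.8 and 93.3 FPKM in MI_DCA hearts, 47.1, 61.0 and 95.8 FPKM in MI_vehicle hearts and 82.0, 101 and 104 FPKM in sham_vehicle hearts. Its groups overlapped, and its log2 fold change was -0.75 for MI_DCA (SE 0.26, adjusted p = 0.0534, not called) and -0.59 for MI_vehicle against sham_vehicle (SE 0.18, adjusted p = 0.0142). Slc22a5 encodes OCTN2, the carrier of carnitine, which fatty acids need to enter mitochondria. Slc22a5 measured 5.56, 9.30 and 13.5 FPKM in MI_DCA hearts, 5.74, 7.80 and 14.7 FPKM in MI_vehicle hearts and 13.1, 14.5 and 19.2 FPKM in sham_vehicle hearts. It fell in both infarcted groups, by a log2 fold change of -0.77 in MI_DCA (SE 0.20, adjusted p = 0.0214) and -0.81 in MI_vehicle (SE 0.18, adjusted p = 0.00245), with 1 infarcted heart of each group inside the sham_vehicle range. Slc27a4, which encodes the related FATP4, rose in both (log2 fold change 0.31, adjusted p = 0.0489, in MI_DCA, lost under another scaling and without any 1 of 9 libraries, and 0.38, adjusted p = 0.0041, in MI_vehicle), and Slc27a3 rose in MI_vehicle to a median of 1.69 FPKM, against 0.955 FPKM in sham_vehicle hearts, a call lost under quantile normalization.

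Of 27 carriers of amino acids and peptides, 13 rose (48.1%, against 38.8% of all genes) and 4 fell (14.8%, against 19.9%) in MI_vehicle relative to sham_vehicle hearts. In MI_DCA hearts 5 rose (18.5%, against 15.9% of all genes) and 1 fell (3.7%, against 8.12%). Slc7a5 encodes LAT1, an exchanger of large neutral amino acids (chromosome 8, 121881146 to 121907686). It measured 2.51, 6.87 and 17.9 FPKM in MI_DCA hearts, 3.63, 13.3 and 20.9 FPKM in MI_vehicle hearts and 2.11, 2.45 and 2.58 FPKM in sham_vehicle hearts. MI_vehicle hearts lay above all sham_vehicle hearts (log2 fold change 1.90, SE 0.28, adjusted p = 0.000209), and MI_DCA hearts overlapped them through heart 3 (1.13, SE 0.39, adjusted p = 0.0505, not called). LAT1 works only when joined to the heavy chain CD98, encoded by Slc3a2, which had medians of 58.8, 68.6 and 34.8 FPKM in MI_DCA, MI_vehicle and sham_vehicle hearts and rose in both infarcted groups (log2 fold change 0.72, adjusted p = 0.00866, and 0.93, adjusted p = 0.000264). The other light chains above the floor, taken as the known partners of Slc3a2, were Slc7a8 (LAT2), Slc7a7 and Slc7a6. They rose in MI_vehicle by log2 fold changes of 1.54, 0.98 and 0.54, and Slc7a10 and Slc7a11 were below the floor. In MI_DCA hearts Slc7a8 and Slc7a7 also passed, at 1.11 and 0.74, and Slc7a6, at 0.29, did not.

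Slc15a3 encodes a lysosomal carrier of histidine and small peptides known from macrophages and dendritic cells. It measured 5.09, 6.27 and 17.8 FPKM in MI_DCA hearts, 7.33, 13.4 and 16.1 FPKM in MI_vehicle hearts and 1.80, 2.28 and 2.93 FPKM in sham_vehicle hearts. Every infarcted heart lay above every sham_vehicle heart, with a log2 fold change of 1.36 for MI_DCA (SE 0.24, adjusted p = 0.00802) and 2.01 for MI_vehicle (SE 0.16, adjusted p = 1.45e-05), the smallest p among the carriers. The monocyte markers given above rose in the same comparisons, and their part in this was not tested. The Slc38 family of sodium-coupled neutral amino acid carriers was split, with 3 of 8 higher and 1 lower in MI_vehicle. Of all genes, 38.8% were higher and 19.9% lower. Slc38a2 encodes SNAT2, raised in many cells by amino acid shortage. It measured 38.1, 82.5 and 151 FPKM in MI_DCA hearts, 52.9, 124 and 159 FPKM in MI_vehicle hearts and 44.0, 49.7 and 66.6 FPKM in sham_vehicle hearts. It rose in MI_vehicle (log2 fold change 1.1, SE 0.22, adjusted p = 0.00123) and was not called in MI_DCA (0.52, SE 0.33, adjusted p = 0.235). Slc38a1, a glutamine carrier of the same family, had medians of 3.39, 5.40 and 3.04 FPKM in MI_DCA, MI_vehicle and sham_vehicle hearts and rose in MI_vehicle (log2 fold change 0.65, SE 0.11, adjusted p = 0.000464). Slc38a3, a glutamine carrier that couples transport to proton movement, went the other way, at 11.2, 26.6 and 37.8 FPKM in MI_DCA hearts, 5.89, 13.8 and 33.6 FPKM in MI_vehicle hearts and 40.4, 42.8 and 49.8 FPKM in sham_vehicle hearts. No infarcted heart reached the sham_vehicle range, and its fall in MI_vehicle (log2 fold change -1.55, SE 0.28, adjusted p = 0.000593) was the largest among the carriers. In MI_DCA it was -0.91 (SE 0.27, adjusted p = 0.0325), a call lost without any 1 of 8 libraries.

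Slc36a2, a proton-coupled carrier of small amino acids such as glycine and proline, also fell in MI_vehicle, at 2.10, 10.4 and 14.3 FPKM in MI_DCA hearts, 3.13, 5.0 and 13.0 FPKM in MI_vehicle hearts and 11.9, 15.9 and 18.9 FPKM in sham_vehicle hearts. The log2 fold change was -1.33 for MI_vehicle, SE 0.24, adjusted p = 0.000666. The other two falls in MI_vehicle were smaller. Slc43a3, grouped here by its family but known for the uptake of purine nucleobases, had medians of 45.4, 41.9 and 67.8 FPKM in MI_DCA, MI_vehicle and sham_vehicle hearts (log2 fold change -0.67 for MI_vehicle, adjusted p = 0.000257). Slc16a10, a carrier of aromatic amino acids, had a log2 fold change of -0.22 (adjusted p = 0.036), a call lost without any 1 of 8 libraries. Slc38a7, a lysosomal glutamine exporter, had close medians of 12.2, 11.4 and 11.3 FPKM in the 3 groups.

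**Figure D3:**
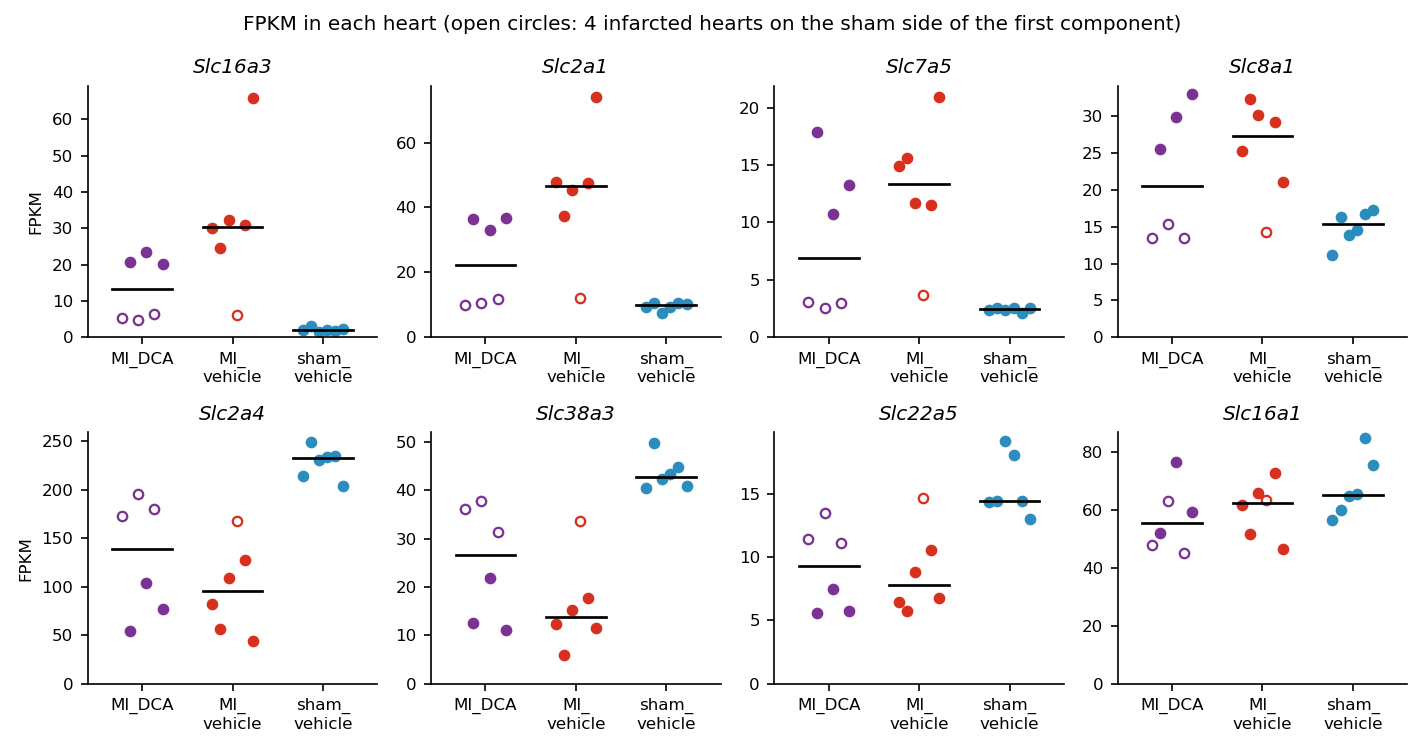
FPKM in each heart (y axes from 0) for 8 carriers, with MI_DCA, MI_vehicle and sham_vehicle from left to right, black lines at the group medians and open circles for the 4 sham-side hearts. In Slc16a3, Slc2a1, Slc7a5 and Slc8a1 the open circles are the lowest infarcted hearts, in Slc2a4 and Slc38a3 they are the highest, and in Slc16a1 all groups overlap.

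Of 23 metal ion carriers, 10 were higher (43.5%, against 15.9% of all genes) and 2 lower (8.70%, against 8.12%) in MI_DCA than in sham_vehicle hearts. In MI_vehicle, 14 were higher (60.9%, against 38.8% of all genes) and 3 lower (13.0%, against 19.9%) than in sham_vehicle hearts. Their median log2 fold changes were 0.29 in MI_DCA and 0.34 in MI_vehicle, against 0.06 and 0.12 for all genes; these shares were not tested against each other. Zinc importers of the Slc39 family made up 7 of the 14 rises, out of 9 measured, and 6 of these were also called in MI_DCA. Slc39a1, the most abundant, measured 76.5, 78.5 and 100.1 FPKM in MI_DCA hearts, 75.0, 98.1 and 104 FPKM in MI_vehicle hearts and 50.8, 57.4 and 67.2 FPKM in sham_vehicle hearts. No infarcted heart, the sham-side hearts included, fell within the sham_vehicle range, and the log2 fold change was 0.54 in MI_DCA (SE 0.10, adjusted p = 0.00843) and 0.69 in MI_vehicle (SE 0.10, adjusted p = 0.00018). Slc39a13 encodes a zinc carrier of the secretory pathway needed for normal connective tissue. It measured 18.9, 34.8 and 57.8 FPKM in MI_DCA hearts, 25.0, 54.9 and 69.7 FPKM in MI_vehicle hearts and 15.4, 18.3 and 19.0 FPKM in sham_vehicle hearts. Its log2 fold change was 0.86 in MI_DCA (SE 0.27, adjusted p = 0.0362) and 1.39 in MI_vehicle (SE 0.21, adjusted p = 0.000242). Further rises of the family in MI_vehicle were those of Slc39a6 (log2 fold change 1.31), Slc39a14, which also carries iron and manganese (0.87), Slc39a11 (0.85), Slc39a7, which releases zinc from the endoplasmic reticulum (0.80), and Slc39a10 (0.21, lost under another scaling). Among the MI_DCA calls, those of Slc39a6 and Slc39a13 were lost without any 1 of 9 libraries and that of Slc39a14 without any 1 of 8, and that of Slc39a6 was also lost under another scaling.

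Of the zinc exporters of the Slc30 family, 4 of 6 were higher and 1 lower in MI_vehicle, against 38.8% and 19.9% of all genes. The log2 fold changes among the rises were 0.31 to 0.71. The rises of Slc30a5 (0.31) and Slc30a6 (0.34) were lost under another scaling. Slc30a9, which acts on mitochondrial zinc, was the one that fell, at medians of 28.5, 32.7 and 37.2 FPKM in MI_DCA, MI_vehicle and sham_vehicle hearts, with no overlap between infarcted and sham_vehicle hearts (log2 fold change -0.43, adjusted p = 0.01, in MI_DCA and -0.34, adjusted p = 0.0163, in MI_vehicle). Slc30a1, the zinc exporter of the plasma membrane, was not called (0.06, SE 0.11, in MI_vehicle). Iron carriers diverged. Slc11a1 encodes a metal carrier of the phagosome of macrophages and neutrophils. It measured 5.83, 8.85 and 13.8 FPKM in MI_DCA hearts, 9.69, 14.0 and 15.4 FPKM in MI_vehicle hearts and 3.40, 4.34 and 5.09 FPKM in sham_vehicle hearts. The infarcted hearts lay wholly above the sham_vehicle hearts, with log2 fold changes of 0.85 (SE 0.17, adjusted p = 0.0119) in MI_DCA and 1.4 (SE 0.14, adjusted p = 2.18e-05) in MI_vehicle. Slc40a1 encodes ferroportin, the exporter of iron. It measured 1.86, 4.76 and 6.88 FPKM in MI_DCA hearts, 2.42, 4.26 and 6.87 FPKM in MI_vehicle hearts and 8.09, 8.79 and 10.3 FPKM in sham_vehicle hearts. Its fall, without overlap, was -1.02 (SE 0.22, adjusted p = 0.0142) in MI_DCA and -0.94 (SE 0.19, adjusted p = 0.00132) in MI_vehicle on the log2 scale.

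Magnesium carriers of the Slc41 family were mixed. Slc41a2 was low in every group, at 0.45, 1.1 and 2.44 FPKM in MI_DCA hearts, 1.2, 2.16 and 3.39 FPKM in MI_vehicle hearts and 0.36, 0.54 and 0.73 FPKM in sham_vehicle hearts. It rose in MI_vehicle without overlap (log2 fold change 1.05, SE 0.14, adjusted p = 0.000109). It passed the floor through the infarcted groups, with a sham_vehicle mean of 0.523 FPKM. Its rise in MI_DCA (0.58, SE 0.18, adjusted p = 0.0357) was lost under another scaling and without any 1 of 9 libraries. Slc41a1, a magnesium carrier of the plasma membrane, fell in MI_vehicle (log2 fold change -0.41, SE 0.14, adjusted p = 0.0223), a call lost without heart 6 of MI_vehicle or hearts 2 or 5 of sham_vehicle. Slc41a3, of the same family, spread from 9.08 to 38.8 FPKM among sham_vehicle hearts and was not called. The copper carriers had medians of 13.4, 14.6 and 13.1 FPKM for Slc31a1, the high-affinity importer, and 16.3, 13.6 and 14.3 FPKM for Slc31a2 in MI_DCA, MI_vehicle and sham_vehicle hearts, and neither was called.

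**Figure D4:**
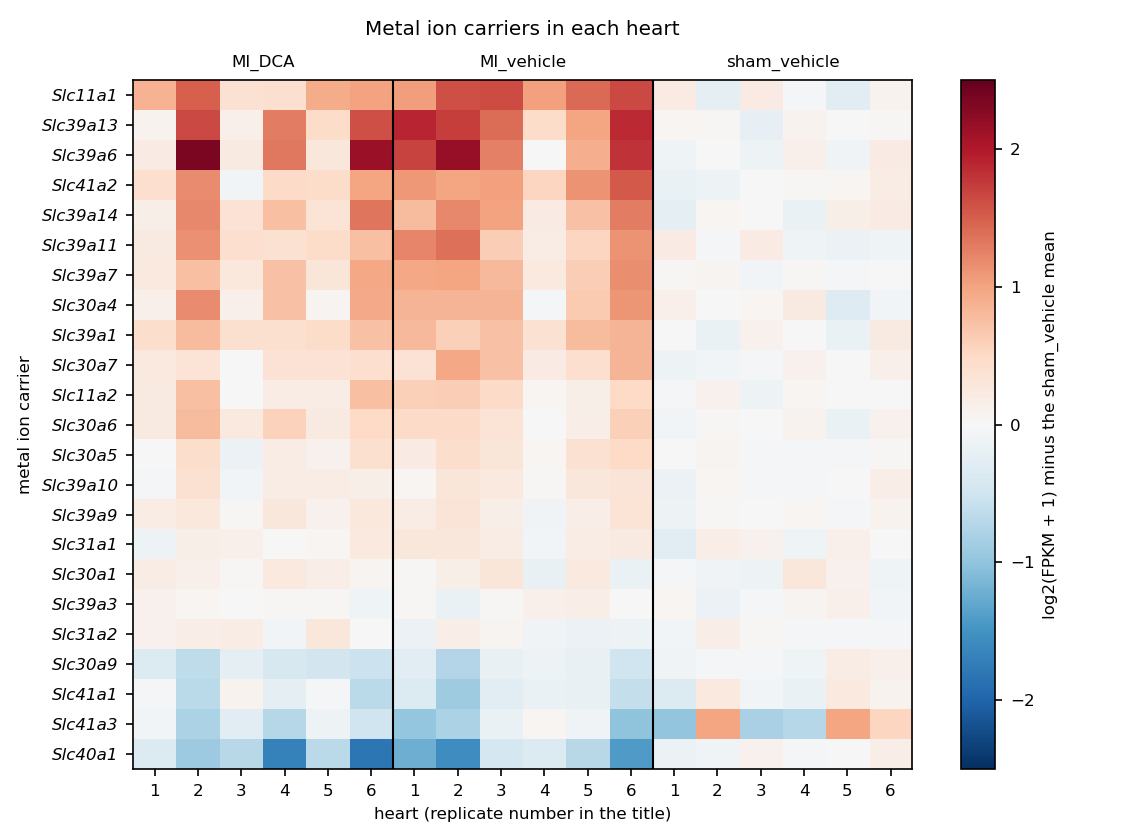
Level of each of the 23 metal ion carriers (rows, ordered by their MI_vehicle difference) in each heart (columns), as log2(FPKM + 1) minus the sham_vehicle mean of the gene. Hearts 1, 3 and 5 of MI_DCA and 4 of MI_vehicle are paler than the other infarcted hearts, and Slc41a3 varies most among the sham_vehicle hearts.

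Slc8a1 encodes the cardiac sodium-calcium exchanger (chromosome 17, 81373105 to 81738387). Slc8a1 measured 13.4, 20.5 and 33.0 FPKM in MI_DCA hearts, 14.3, 27.3 and 32.3 FPKM in MI_vehicle hearts and 11.2, 15.4 and 17.3 FPKM in sham_vehicle hearts. The 4 sham-side hearts, at 13.4 to 15.4 FPKM, lay inside the sham_vehicle range and the other 8 infarcted hearts above it. The log2 fold change was 0.43 in MI_DCA (SE 0.22, adjusted p = 0.151, not called) and 0.69 in MI_vehicle (SE 0.17, adjusted p = 0.00434). The related Slc8a2 and Slc8a3 were below the floor.

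Of 14 exchangers of protons, bicarbonate and other anions, 4 were higher (28.6%, against 38.8% of all genes) and 3 lower (21.4%, against 19.9%) in MI_vehicle. Slc4a3, which encodes the chloride-bicarbonate exchanger AE3 of heart and brain, measured 30.1, 71.5 and 90.2 FPKM in MI_DCA hearts, 36.4, 61.3 and 82.6 FPKM in MI_vehicle hearts and 72.6, 83.9 and 94.6 FPKM in sham_vehicle hearts (log2 fold change -0.56 for MI_vehicle, SE 0.20, adjusted p = 0.0247), a call lost without heart 2 or 6 of MI_vehicle or heart 2 or 5 of sham_vehicle. Slc26a6, an anion exchanger of the heart that trades chloride for bicarbonate or oxalate, fell to a median of 2.39 FPKM in MI_vehicle hearts, against 4.46 FPKM in sham_vehicle hearts (-0.61, SE 0.19, adjusted p = 0.0152). Slc26a10, of the same family, fell in MI_vehicle too (-0.99, SE 0.27, adjusted p = 0.00676), with heart 4 of MI_vehicle at 29.0 FPKM within the sham_vehicle range of 14.9 to 31.6 FPKM. Its coding transcript NM_177615.3 held estimated median shares of 31.3%, 26.3% and 25.2% of its FPKM in MI_DCA, MI_vehicle and sham_vehicle hearts. Its other transcripts with a mean of at least 1 FPKM were annotated as non-coding. Slc9a7 encodes a sodium-proton exchanger of the trans-Golgi. It measured 1.39, 2.44 and 3.93 FPKM in MI_DCA hearts, 1.65, 4.0 and 4.62 FPKM in MI_vehicle hearts and 1.01, 1.3 and 1.48 FPKM in sham_vehicle hearts. It rose in MI_vehicle without overlap (0.99, SE 0.16, adjusted p = 0.000312). In MI_DCA it was called higher too, a call lost under another scaling and without any 1 of 9 libraries. The rise of Slc9a5 in MI_vehicle (0.42, adjusted p = 0.00652) was lost under quantile normalization.

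Among the cation-chloride cotransporters, Slc12a2, which encodes the sodium-potassium-chloride cotransporter NKCC1, fell to medians of 4.75 FPKM in MI_DCA and 4.51 FPKM in MI_vehicle hearts, against 6.05 FPKM in sham_vehicle hearts (log2 fold change -0.26, adjusted p = 0.0357, lost without any 1 of 8 libraries, and -0.37, adjusted p = 0.00342). Slc12a4, which encodes the potassium-chloride cotransporter KCC1, rose in MI_vehicle to a median of 34.0 FPKM, against 22.7 FPKM in sham_vehicle hearts (0.53, SE 0.11, adjusted p = 0.00146). Slc12a9 rose too (0.37, adjusted p = 0.00728), a call lost under quantile normalization, and the abundant Slc12a7, another potassium-chloride cotransporter, was not called. The phosphate carriers Slc20a1 and Slc20a2 had opposite signs. Slc20a1 rose in MI_vehicle (0.68, SE 0.16, adjusted p = 0.00255) and in MI_DCA (0.47, adjusted p = 0.0478, lost under another scaling and without any 1 of 9 libraries). Slc20a2 had log2 fold changes of -0.27 in MI_vehicle (adjusted p = 0.054, not called) and -0.39 in MI_DCA (adjusted p = 0.0274, lost without any 1 of 6 libraries).

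Slc6a6 encodes the taurine carrier. It measured 35.5, 60.5 and 86.0 FPKM in MI_DCA hearts, 48.2, 77.4 and 91.7 FPKM in MI_vehicle hearts and 24.9, 35.4 and 47.9 FPKM in sham_vehicle hearts. MI_vehicle hearts all lay above the sham_vehicle hearts (log2 fold change 1.04, SE 0.17, adjusted p = 0.000343), and MI_DCA hearts overlapped them (0.69, SE 0.20, adjusted p = 0.0291, lost without any 1 of 6 libraries). The creatine carrier Slc6a8, of the same family and similar level, was not called, at 51.5, 64.9 and 82.8 FPKM in MI_DCA hearts, 53.8, 60.4 and 88.3 FPKM in MI_vehicle hearts and 49.3, 66.3 and 75.0 FPKM in sham_vehicle hearts. Its log2 fold changes of 0.02 in MI_DCA (SE 0.14) and -0.04 in MI_vehicle (SE 0.13) against sham_vehicle were within their errors.

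Of 13 carriers of nucleosides, vitamins and heme, 5 were higher (38.5%, against 38.8% of all genes) and 4 lower (30.8%, against 19.9%) in MI_vehicle. Slc28a2, a sodium-coupled purine nucleoside carrier, measured 9.64, 20.4 and 29.4 FPKM in MI_DCA hearts, 8.19, 12.8 and 23.4 FPKM in MI_vehicle hearts and 18.7, 23.4 and 26.6 FPKM in sham_vehicle hearts. The log2 fold change was -0.72 for MI_vehicle, SE 0.19, adjusted p = 0.00603. Slc46a3, a lysosomal carrier, fell as well (-0.70, SE 0.17, adjusted p = 0.00317), as did Slc48a1, which moves heme out of lysosomes (-0.34, SE 0.09, adjusted p = 0.00742). The riboflavin carrier Slc52a2 rose without overlap in both infarcted groups, at medians of 4.04, 5.42 and 2.85 FPKM in MI_DCA, MI_vehicle and sham_vehicle hearts (0.44, adjusted p = 0.0198, and 0.72, adjusted p = 0.000428). Slc19a1, the reduced folate carrier, rose in MI_vehicle (0.71, SE 0.15, adjusted p = 0.00144).

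Carriers of organic ions had 2 members higher (28.6%, against 38.8% of all genes) and 2 lower (28.6%, against 19.9%) of 7 in MI_vehicle. Slc22a3 encodes an organic cation carrier also known to remove catecholamines. It measured 0.11, 0.80 and 1.53 FPKM in MI_DCA hearts, 0.05, 0.52 and 2.24 FPKM in MI_vehicle hearts and 1.32, 2.23 and 3.22 FPKM in sham_vehicle hearts (log2 fold change -0.87 in MI_DCA, adjusted p = 0.0265, lost without any 1 of 6 libraries, and -0.99 in MI_vehicle, adjusted p = 0.00427). Slc47a1, which exports organic cations in exchange for protons, fell without overlap in MI_vehicle, at 13.8, 24.3 and 29.4 FPKM against 30.3, 36.0 and 44.8 FPKM in sham_vehicle hearts (-0.65, SE 0.17, adjusted p = 0.00493). MI_DCA hearts, at 21.4, 35.8 and 43.2 FPKM, were not called against sham_vehicle (-0.18, SE 0.18, adjusted p = 0.447). Slc10a3 and Slc10a7, which belong to the bile salt carrier family by sequence, rose in MI_vehicle (1.05, adjusted p = 0.000557, and 0.26, adjusted p = 0.0231, the second lost under another scaling and without heart 3 of MI_vehicle or heart 4 or 5 of sham_vehicle). In MI_DCA Slc10a3 rose too (0.89, SE 0.27, adjusted p = 0.0334), a call lost without any 1 of 8 libraries. The bile acid carriers themselves were below the floor: Slc10a1, the hepatic one, did not pass 0.85 FPKM in any heart and Slc10a2, the ileal one, did not pass 0.16 FPKM.

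Among 10 carriers of nucleotide sugars and sugar phosphates, 4 were higher (40%, against 38.8% of all genes) and 0 lower (0%, against 19.9%) in MI_vehicle. Of the rises, 3 were lost under another scaling, that of the abundant Slc35a4 among them (log2 fold change 0.41, adjusted p = 0.0124). The rise that was kept was that of Slc37a2, a sugar phosphate exchanger of the endoplasmic reticulum known from macrophages. It measured 1.33, 2.97 and 4.78 FPKM in MI_DCA hearts, 2.62, 4.19 and 4.92 FPKM in MI_vehicle hearts and 1.33, 1.84 and 2.58 FPKM in sham_vehicle hearts (0.81, SE 0.15, adjusted p = 0.000654). In MI_DCA no member of this group was called. The vesicular monoamine carrier Slc18a2 and the vesicular glutamate carrier Slc17a7 were not called in either infarcted group. Their log2 fold changes were 0.03 and 0.16 in MI_DCA and 0.01 and 0.23 in MI_vehicle, given for Slc18a2 and then Slc17a7.

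Among the 135 genes, 4 match the naming rule without being transporters, and the counts of carriers include them. Slc9a3r1 and Slc9a3r2 encode scaffolds that anchor membrane proteins, and they moved apart in MI_vehicle. Slc9a3r1 had medians of 6.59, 8.80 and 5.14 FPKM in MI_DCA, MI_vehicle and sham_vehicle hearts (log2 fold change 0.71 for MI_vehicle, adjusted p = 0.0016), and Slc9a3r2 104, 73.5 and 96.4 FPKM (-0.34, SE 0.11, adjusted p = 0.0175). Slc7a6os rose in MI_vehicle (0.43, adjusted p = 0.00151). It lies beside Slc7a6, without overlap of the annotated spans (chromosome 8, 106200438 to 106210933 for Slc7a6os and 106168219 to 106198714 for Slc7a6). Whether the counting used strand is not given in the sources used here.

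Between MI_DCA and MI_vehicle hearts, no carrier passed the adjusted threshold in limma in either direction, as no gene did over the whole table (0% higher and 0% lower). At an unadjusted p under 0.05, 2 carriers were higher (1.48%, against 1.59% of all genes) and 15 lower (11.1%, against 9.01%) in MI_DCA. The median log2 fold change was -0.09 for the carriers, against -0.06 for all genes, and 99 of 135 were negative. The smallest p values belonged to Slc45a4, Slc2a3, Slc9a3r2 and Slc9a9, with adjusted p of 0.412 for the first 3 and 0.416 for the last. Slc45a4 measured 3.93, 5.44 and 6.04 FPKM in MI_DCA hearts, against 6.22, 7.0 and 7.68 FPKM in MI_vehicle hearts and 5.49, 5.59 and 6.29 FPKM in sham_vehicle hearts. It was the only carrier whose MI_DCA and MI_vehicle hearts did not overlap (log2 fold change -0.38, SE 0.09, unadjusted p = 0.00134). Slc2a3, near the floor, measured 0.71, 0.875 and 0.93 FPKM in MI_DCA hearts and 0.85, 1.56 and 2.03 FPKM in MI_vehicle hearts (-0.45, SE 0.11, unadjusted p = 0.00145), with heart 4 of MI_vehicle the one that overlapped. Of its group means, only that of MI_vehicle, 1.53 FPKM, reached the floor (0.838 in MI_DCA and 0.798 in sham_vehicle). It was thus described only through the group in which it was higher, and its differences are no support for a change.

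Slc9a9, an endosomal sodium-proton exchanger, measured 1.60, 1.85 and 2.2 FPKM in MI_DCA hearts and 2.13, 2.44 and 2.78 FPKM in MI_vehicle hearts (log2 fold change -0.27, SE 0.08, unadjusted p = 0.00432). Slc9a3r2 was higher in MI_DCA, at 87.7, 104 and 120 FPKM, than in MI_vehicle, at 62.6, 73.5 and 96.5 FPKM (0.46, SE 0.12, unadjusted p = 0.0019). For carriers described above, the log2 fold changes of MI_DCA against MI_vehicle, none of which passed, were -1.18 (SE 0.53) for Slc16a3, -0.95 (SE 0.45) for Slc2a1, 0.41 (SE 0.38) for Slc2a4, -0.26 (SE 0.26) for Slc8a1 and -0.77 (SE 0.49) for Slc7a5. Of the sham-side hearts, 3 were among the 6 MI_DCA hearts and 1 among the 6 MI_vehicle hearts. Without those 4 the log2 difference became -0.04 for Slc2a4 and 0.10 for Slc8a1, and 0 carriers were called. Those hearts were picked by their own expression after the data were seen, so this is no test of the treatment.

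**Figure D5:**
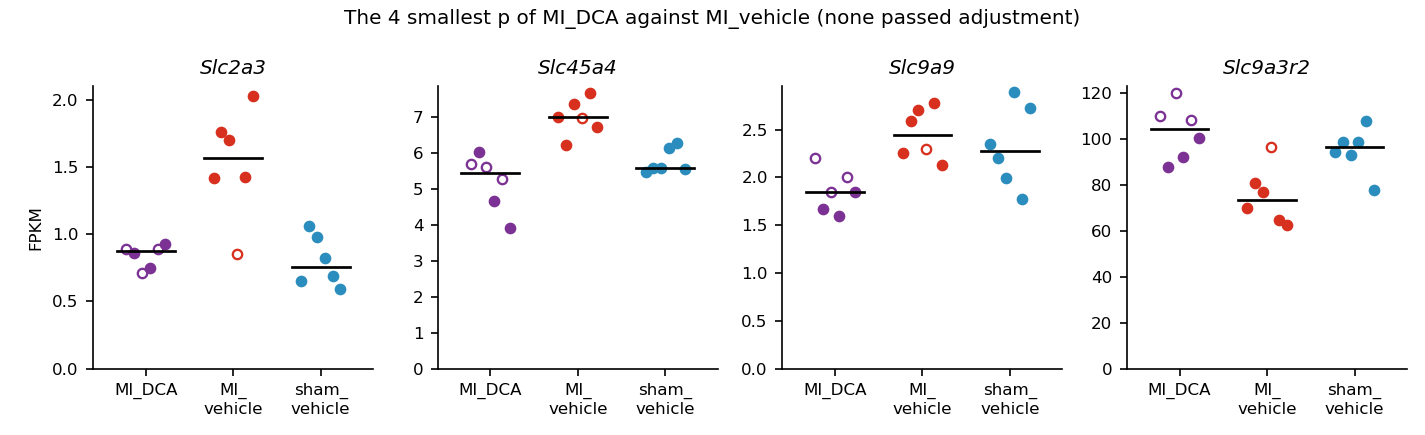
FPKM in each heart (y axes from 0) of the 4 genes described with the smallest p between MI_DCA and MI_vehicle, the scaffold gene Slc9a3r2 among them. None passed adjustment. Black lines mark the group medians and open circles the 4 sham-side hearts. MI_DCA and MI_vehicle hearts do not overlap in Slc45a4; in Slc2a3 only the open circle of MI_vehicle reaches the MI_DCA hearts.

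Genes that work with these carriers were listed apart. Of 25 partners and regulators tested, 11 rose and 7 fell in MI_vehicle relative to sham_vehicle hearts, against 38.8% and 19.9% of all genes. Emb, which encodes embigin, a chaperone of lactate carriers, had medians of 3.47, 7.13 and 1.55 FPKM in MI_DCA, MI_vehicle and sham_vehicle hearts and rose in both infarcted groups (log2 fold change 0.95, adjusted p = 0.0288, and 1.65, adjusted p = 0.000261). Bsg, which encodes basigin, the main chaperone of MCT1 and MCT4, fell in MI_vehicle (-0.53, SE 0.10, adjusted p = 0.000883). Hk1 and Hk2, the hexokinases that trap glucose after entry, rose in MI_vehicle (0.76 and 0.28). Tbc1d4, which holds GLUT4 vesicles inside the cell, fell there (-0.97, adjusted p = 0.00132, limma), while Tbc1d1, of the same family, rose (0.54, adjusted p = 0.000996). The zinc-binding metallothionein gene Mt2 rose in both infarcted groups (1.22 in MI_DCA, adjusted p = 0.0198, and 1.32 in MI_vehicle, adjusted p = 0.00247), and Mt1 did not pass in either. Of 10 solute carriers under other names, 3 were higher and 5 lower in MI_vehicle, against the same shares of all genes. Mpc1 and Mpc2, the subunits of the mitochondrial pyruvate carrier, fell (-0.57, adjusted p = 0.00841, and -0.78, adjusted p = 0.00137), and Slco2a1, a prostaglandin carrier, rose (0.83, adjusted p = 0.000865).

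The floor itself set the edge of the group. Slc2a3, with a mean of 1.06 FPKM, was the lowest gene inside and Slc1a3, a glutamate carrier with a mean of 0.996 FPKM, the highest outside. Of the 154 genes below the floor, 9 had a mean of at least 1 FPKM in 1 or more groups, among them Slc2a6, with means of 0.90, 1.41 and 0.307 FPKM in MI_DCA, MI_vehicle and sham_vehicle hearts, and 21 reached 1 FPKM in at least 1 heart. Of the 135 carriers inside, 5 had a sham_vehicle mean below 1 FPKM, 2 an MI_vehicle mean and 2 an MI_DCA mean below it, so they are present through the other groups. Those with a low sham_vehicle mean included Slc2a3, Slc27a3, Slc41a2 and Slc9a5. Passing the floor through a group favours genes that are high in it, and the differences of these genes carry that limit. All 135 were above 0 in every heart.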

How the data were processed

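Heart apex RNA was made into RNA Access capture libraries and read as single 50-base reads on a BGISEQ-500, per the labels' protocols. The deposited gene tables hold FPKM, as the authors made them, a unit inferred from the values since the headers name none; per-library sums were 516274 to 584701 FPKM, and the reads behind each library are not given in the files, so no counting interval is possible. Bowtie2 2.2.5, RSEM 1.2.12, DESeq2 1.4.5 and GRCm38.p6 are named in the submitters' processing notes without their roles. No count test was run. For each of 3 comparisons, limma 3.58.1 (R 4.3.3, with a trend in the prior variance) was fitted to log2(FPKM + 1) of the 12 libraries concerned, over the 11985 genes that averaged 1 FPKM or more across all 18, with Benjamini-Hochberg adjustment over all of them and a threshold of 0.05. Fold changes are on that scale, which understates changes of low genes. Each group had 6 libraries, and within-group correlations over genes were 0.923 to 0.993. On simulated data with 200 changed genes among 11985, a log2 change of 1 was recovered in 88% of cases for MI_vehicle against sham_vehicle, 83% for MI_DCA against MI_vehicle and 87% for MI_DCA against sham_vehicle. The simulated noise was drawn independently for each gene, whereas genes of the real hearts varied together. These shares therefore check the fit and do not say which changes the real comparisons could have missed.

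The members, lists and tests were chosen with earlier results of these data known. Genes were named by rule: Slc2a1, Slc2a4, Slc16a3 and Slc8a1, the 2 largest called rises and falls and the most abundant member of each role, the 5 smallest p in each direction between MI_DCA and MI_vehicle, the genes nearest the floor, and family members called in the opposite direction. Other members, and the partner genes given by value, were named after their values were seen, and the 4 proteins that are not transporters were set apart after the tables were read. Alternatives were the pseudocount, the filter, scaling, 1 fit over all 18 libraries, a replicate block, leaving out each library and, added later, leaving out the sham-side hearts. Results of 2 single carriers are not reported here; the counts include them, and the plot by role leaves them out.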

Additional observations from a re-analysis of the deposited data

Results flagged for a closer look

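In groups of 6 hearts, a single heart stood far from the rest by Dixon's ratio in 12 of 171 sets of values (each named carrier in each group). Chance alone gives about 1 in 20 sets. Heart 4 of MI_vehicle, a sham-side heart, accounted for 5 of them: Slc12a9 at 3.42 FPKM (nearest heart 4.19), Slc16a6 at 4.72 (8.37), Slc22a3 at 2.24 (0.71), Slc26a10 at 29.03 (12.37) and Slc46a3 at 8.38 FPKM (5.88). Heart 2 of MI_vehicle stood apart in Slc12a2 at 3.49 FPKM (4.44) and in Slc6a8 at 88.27 FPKM (63.21). Heart 2 of MI_DCA was high in Slc15a3, at 17.79 FPKM (9.37). Among sham_vehicle hearts, heart 1 was low in Slc16a6 at 3.5 FPKM (4.9), heart 2 high in Slc26a6 at 6.35 (4.87), heart 3 low in Slc39a13 at 15.4 (17.72) and heart 6 low in Slc27a1 at 82.05 FPKM (98.29).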

How the results depend on the processing

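For MI_vehicle against sham_vehicle, the 59 higher and 25 lower carriers became 40 lower under quantile normalization, and leaving out single libraries gave 52 to 64 higher and 22 to 28 lower. For MI_DCA against sham_vehicle, the 24 higher and 13 lower became 15 and 8 with no filter, 20 lower under quantile normalization, and 12 to 32 higher and 5 to 21 lower when single libraries were left out; any of 10 of the 12 libraries, all but hearts 1 and 5 of MI_DCA, moved a count by over 1.5 times. Without the 3 sham-side hearts, an alternative chosen after seeing the data, 50 were higher and 34 lower. Those hearts were left out for lying nearest to the sham_vehicle hearts, a choice that can itself add calls. The share over all genes in that fit is not given here, so these counts are no result about carriers. MI_DCA against MI_vehicle gave 0 calls in every setting run. The cause of these shifts was not tested. Hearts with the same replicate number did not regularly deviate together (correlations of -0.441 to 0.688), though so few correlations cannot exclude a pairing. A replicate block gave 55 higher and 24 lower carriers for MI_vehicle and 19 and 9 for MI_DCA against sham_vehicle.

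Among the 57 carriers named by rule, the sign changes were all in comparisons where the carrier was not called. For MI_vehicle against sham_vehicle, the log2 fold change under median-ratio scaling was -0.002 for Slc12a7, -0.068 for Slc18a2 and -0.030 for Slc9a9, and under quantile normalization -0.183 for Slc18a2 and -0.095 for Slc9a9. Leaving out single libraries gave -0.038 to 0.039 for Slc18a2, -0.055 to 0.047 for Slc38a7 and -0.136 to 0.005 for Slc6a8. For MI_DCA against sham_vehicle, median-ratio scaling gave -0.005 for Slc18a2 and -0.044 for Slc6a8, quantile normalization -0.049 for Slc18a2, -0.080 for Slc2a3 and -0.062 for Slc6a8, and single libraries -0.006 to 0.078 for Slc18a2 and -0.053 to 0.090 for Slc6a8. Without the sham-side hearts Slc9a3r2 was at -0.020 for MI_DCA against sham_vehicle, and Slc2a4 at -0.042 and Slc8a1 at 0.097 for MI_DCA against MI_vehicle. Read depth is not given in the files, so what it limits for carriers near 1 FPKM could not be set.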
